A study of Mus musculus with 180 samples.

Results

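The genes described here are the suppressor of cytokine signalling (SOCS) family, *Socs1* to *Socs7* and *Cish*, 8 of the 45070 genes in the expression table. They were selected by their symbols, and all 8 were kept whatever their values. The family itself was chosen on results of these same data, so the p-values given below describe the data and are not independent support for any change. All 8 genes passed the filter of a mean normalized count of at least 10 over all samples, which 12714 genes passed. Bone marrow-derived macrophages (BMDM), grown in culture from the bone marrow of wild type male C57/BL6 mice a few weeks old, were treated for 1 h with 1 of 58 clinical kinase inhibitors (CKIs) or with the vehicle DMSO. They were then all stimulated for 2 h with 10 ng/ml of lipopolysaccharide (LPS), the bacterial component that activates TLR4, so that the DMSO samples were LPS-stimulated too and no unstimulated sample was compared here. There were 3 samples for each CKI and 6 for DMSO, the latter in 2 labelled sets of 3. Each CKI was used at its own concentration, chosen for its intended target, so that CKIs of a class were not matched in dose and their values are given side by side.

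SOCS proteins are feedback inhibitors of cytokine signalling. Cytokine receptors activate JAK kinases, which phosphorylate STAT transcription factors; STATs induce SOCS genes, whose SH2-domain proteins then bind receptors or kinases and, through the SOCS box, recruit elongins and a cullin to mark bound proteins for degradation. In macrophages exposed to LPS, *Socs3* and *Socs1* are well-known restraints on signalling through the IL-6 and interferon receptors, *Cish* is a classical STAT5 target, and *Socs4* to *Socs7* are known more for growth factor and insulin receptor signalling.

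The promoters of 4 of the 8 genes were found in the RefSeq promoter table (GRCm38.p6, the mm10 build of the files), and 3 are shown because their genes were called lower most often. Each is 300 bases long, from 250 bases before the start site to 50 after it, written 5′ to 3′ on the gene's own strand. Capitals mark the STAT-type motif TTCNNNGAA in *Cish* and *Socs3*, and in *Socs1* the interferon-response type motif GAAANNGAA, which reads TTCNNTTTC on the other strand.
Cish, chr9:107296409-107296708, plus strand: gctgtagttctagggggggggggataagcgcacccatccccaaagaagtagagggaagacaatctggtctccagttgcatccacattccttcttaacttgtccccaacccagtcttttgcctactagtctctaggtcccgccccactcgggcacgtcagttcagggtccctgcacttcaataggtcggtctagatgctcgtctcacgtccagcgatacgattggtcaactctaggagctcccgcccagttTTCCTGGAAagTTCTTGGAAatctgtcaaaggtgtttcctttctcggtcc
Socs3, chr11:117969317-117969616, minus strand: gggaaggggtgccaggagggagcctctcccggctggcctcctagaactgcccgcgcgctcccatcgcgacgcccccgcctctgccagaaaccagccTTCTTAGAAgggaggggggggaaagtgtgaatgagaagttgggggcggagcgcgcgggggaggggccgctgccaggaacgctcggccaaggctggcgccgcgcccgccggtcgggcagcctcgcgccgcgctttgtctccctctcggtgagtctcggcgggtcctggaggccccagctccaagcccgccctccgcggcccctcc
Socs1, chr16:10785487-10785786, minus strand: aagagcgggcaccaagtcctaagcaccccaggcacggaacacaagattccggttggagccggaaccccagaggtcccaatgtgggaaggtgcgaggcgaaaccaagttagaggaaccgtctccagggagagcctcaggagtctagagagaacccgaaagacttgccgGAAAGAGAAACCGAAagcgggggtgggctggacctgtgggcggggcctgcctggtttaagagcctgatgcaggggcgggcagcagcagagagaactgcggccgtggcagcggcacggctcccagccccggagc
The *Cish* window held 2 STAT-type motifs, which begin at positions 1 and 12 counted from the start site, and the *Socs3* window held 1, which begins at position -154. Of all 32851 promoters in the table, 8.30% held this motif, which reads the same on both strands. The *Socs1* window held 2 overlapping interferon-response type motifs, beginning at -83 and -77, and 8.56% of all promoters held this motif on either strand. These matches describe the letters in the windows and not bound sites.

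In mm10, *Cish* lies at chr9:107296659-107302784 (plus strand), *Socs1* at chr16:10783808-10785536 (minus strand), *Socs2* at chr10:95411490-95416857 (minus strand) and *Socs3* at chr11:117966079-117969366 (minus strand), and the values count reads on the exons of each gene. The genes differed widely in level. Since longer transcripts give more reads, levels were compared per kilobase of transcript. In DMSO, *Socs3* stood at a mean of 13098 normalized counts per kilobase, *Socs1* at 2006 and *Cish* at 762. The other 5 genes lay between 38.9 for *Socs6* and 7.60 for *Socs2*, with *Socs7* at 22.1, *Socs5* at 15.0 and *Socs4* at 13.1. The normalized counts are the authors' exonic read counts, scaled on invariant genes and rounded. They summed to between 9477340 and 12273349 per sample, and for *Socs2*, with 5 to 63 normalized counts in a sample, the depth limits what could be detected. The cells showed all 8 macrophage markers fixed for this check at or above the filter, with summed levels of 82188 to 185832 in DMSO and 71477 to 211774 with a CKI. Of 8 neutrophil markers 6 passed the filter, and their whole list summed to 267 to 932 in DMSO and 217 to 2141 with a CKI. The T cell, B cell, NK cell and erythroid lists reached at most 46 in any sample, the mast cell list at most 55, with *Mcpt4* at 0 in all samples, the dendritic cell list at most 161 and the fibroblast list at most 221. The share of mitochondrial transcripts, given below where it moved with a result, was 0.759% to 1.94% in DMSO and 0.525% to 4.47% with a CKI.

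**Figure D1:**
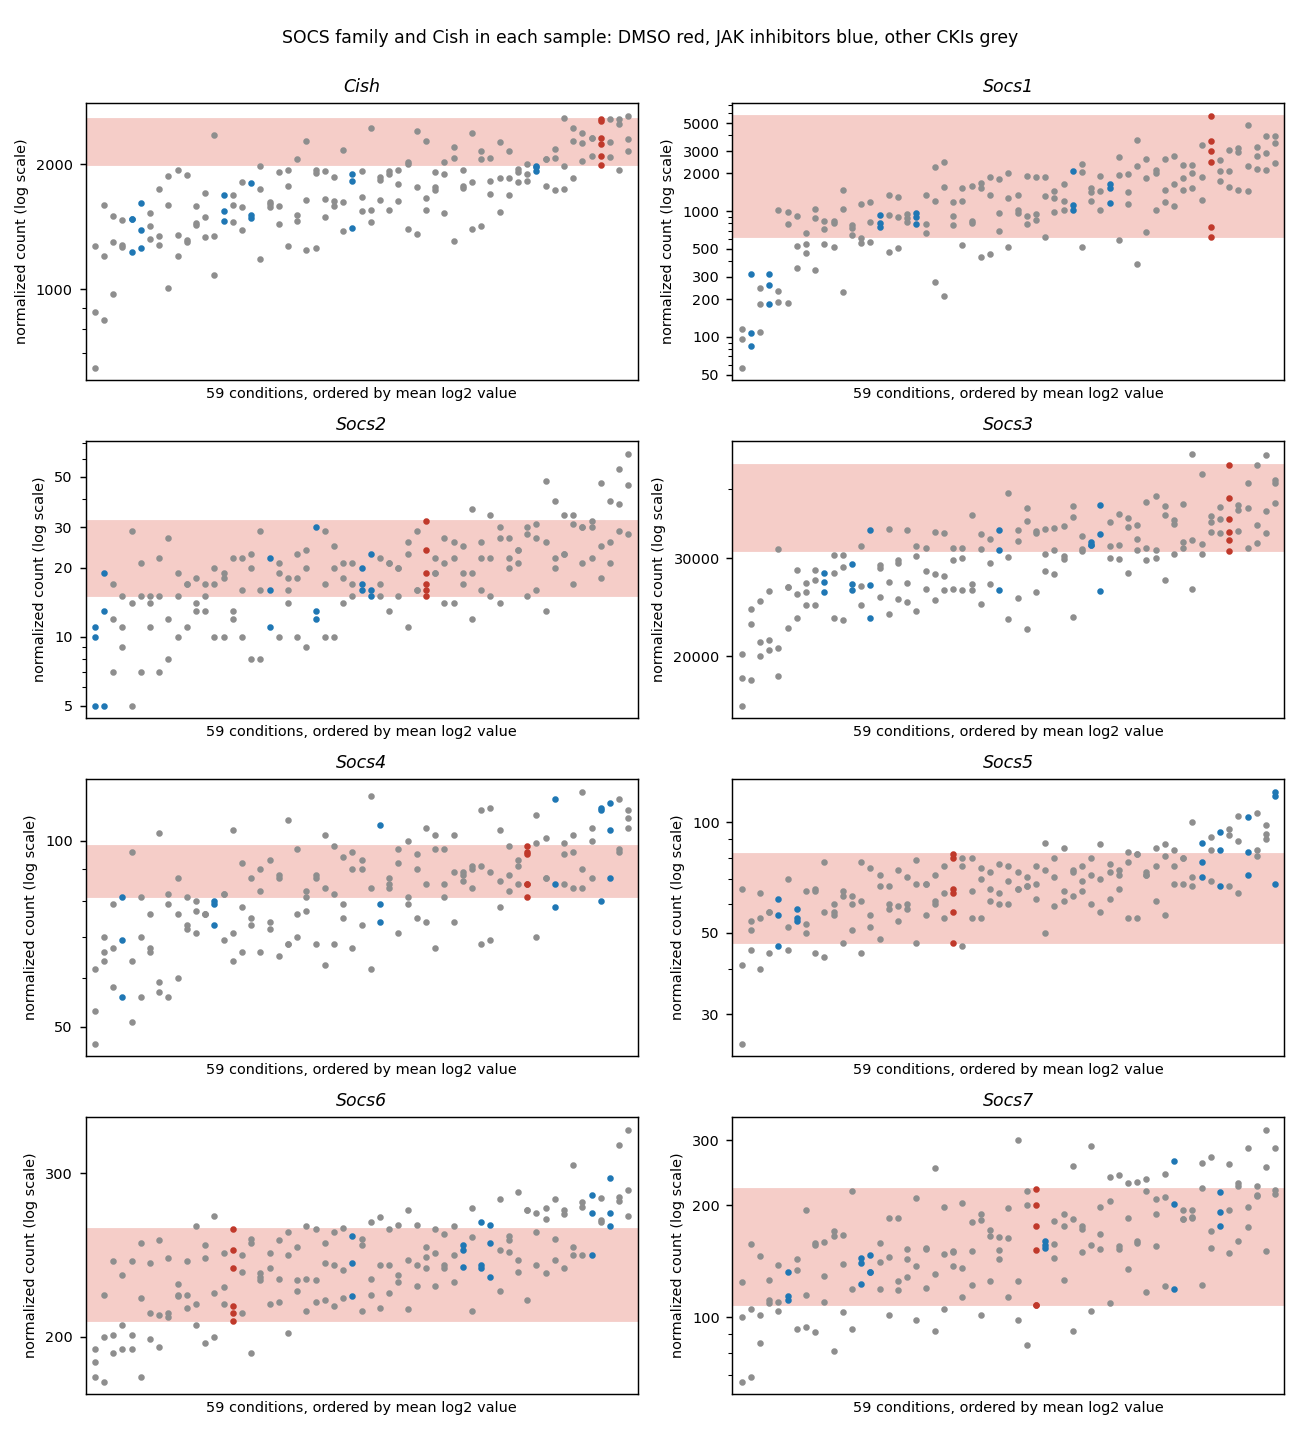
Normalized counts (y axis, log scale) of the 8 genes in each of 180 samples, with the 59 conditions on the x axis ordered by their mean log2 value separately in each panel. Points are samples (DMSO red, JAK inhibitors blue, other CKIs grey) and the band is the range of the 6 DMSO samples; most *Cish* points lie below the band, while those of *Socs5* and *Socs7* mostly lie within it.

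For every CKI the difference from DMSO was taken on the scale of log2(normalized count + 1), in 1 limma fit of all 59 groups with Benjamini-Hochberg adjustment over the 12714 genes, and an adjusted p under 0.05 was a call. Because of the added 1, the fold changes of low genes such as *Socs2* are understated. Of the 464 gene-CKI pairs, 25 were called lower and 5 higher, which is 5.39% and 1.08% of the pairs. Over all genes and CKIs, 1.65% of the tests were called lower and 2.52% higher. The lower calls were on *Cish* (8 CKIs), *Socs1* (7), *Socs3* (7), *Socs2*, *Socs4* and *Socs6* (1 each), and the higher ones on *Socs6* (3) and *Socs2* (2). *Socs5* and *Socs7* had 0 calls in limma; at an unadjusted p under 0.05 there were 6 and 2 CKIs. Among the 12714 genes, 2.45% were called lower with at least 7 CKIs and 1.56% with at least 8. The 30 calls came from 15 CKIs. All 58 comparisons share the same 6 DMSO samples, so the calls of a gene with different CKIs are not independent of each other.

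**Figure D2:**
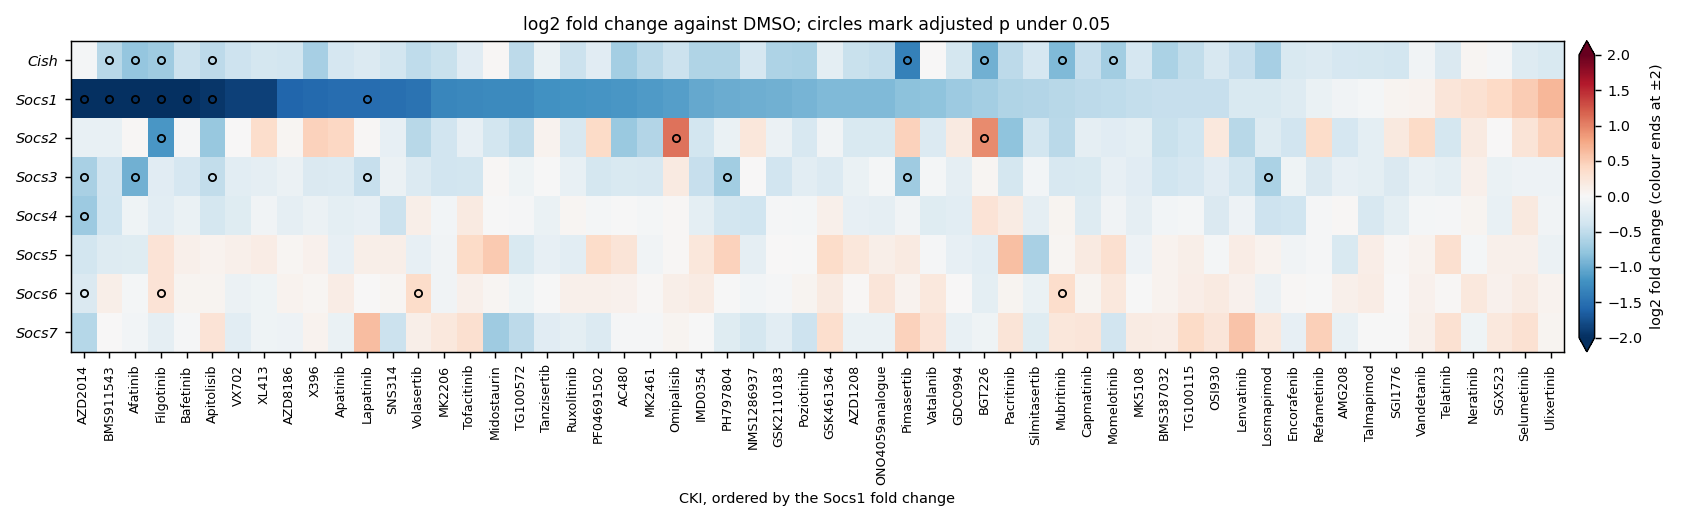
Log2 fold change against DMSO (colour, ending at ±2) of the 8 genes (rows) with 58 CKIs (columns, ordered by the *Socs1* value); circles mark the 30 calls. The row of *Socs1* runs from -4.55 to 0.67, and the rows of *Cish* and *Socs3* are mostly below 0.

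*Cish*, whose product dampens STAT5 signalling from receptors such as those for IL-2 family cytokines and erythropoietin, was lower than in DMSO with most of the CKIs. The 6 DMSO samples held 1993 to 2571 normalized counts with a median of 2280.5, a 1.29-fold range. With 33 of the 58 CKIs (56.9%) all 3 samples lay below all 6 DMSO samples, which held for 2.02% of all gene-CKI tests, and with 0 CKIs did all 3 lie above. At least 33 CKIs with this pattern were seen for 8 genes of 12714 (0.0629%). The mean log2 value was below that of DMSO with 55 of the 58 CKIs, with a median log2 fold change of -0.43. In bulk samples, less RNA of a gene per cell and fewer cells that express it cannot be told apart.

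The largest fall of *Cish* was with Pimasertib, an inhibitor of MEK, the kinase above ERK. The samples held 879, 1270 and 647 normalized counts, all of them below every DMSO sample. The log2 fold change was -1.35 (SE 0.18, adjusted p = 1.83e-08), a 2.55-fold lower level. The share of mitochondrial transcripts averaged 3.66% in these samples, and with this share and the replicate number in the fit the adjusted p was 1.64e-06.

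BGT226, an inhibitor of PI3K and mTOR, was next. Its samples held 1200, 841 and 1597 normalized counts, again below all DMSO samples and with a 1.95-fold lower level (log2 fold change -0.96, SE 0.18, adjusted p = 7.22e-06). Mubritinib, designed against ERBB2, gave 1503, 974 and 1296 (log2 fold change -0.88, adjusted p = 8.34e-04). Afatinib, an inhibitor of EGFR and ERBB2, gave 1468, 1280 and 1265 (log2 fold change -0.78, adjusted p = 7.54e-04). In none of these groups did a sample reach the lowest DMSO value.

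JAK inhibitors (JAKi) act directly above STATs, and 3 of the 6 were called. Filgotinib gave 1477, 1229 and 1476 normalized counts of *Cish* (log2 fold change -0.72, SE 0.18, adjusted p = 0.0018). Momelotinib gave 1616, 1391 and 1260 (-0.69, adjusted p = 0.034). BMS911543 gave 1687, 1544 and 1463 (-0.55, adjusted p = 0.037). All 9 of these samples lay below the 6 DMSO samples. The samples of the other 3 JAKi also lay below all DMSO samples, but their differences did not pass the test. Pacritinib gave 1487, 1509 and 1807 (log2 fold change -0.52, adjusted p = 0.14), and Ruxolitinib gave 1823, 1897 and 1408 (-0.43, adjusted p = 1.00). Tofacitinib gave 1977, 1972 and 1932 (-0.22, adjusted p = 0.42). The adjusted p depends on the other genes of a comparison: with Ruxolitinib 0 of the 12714 genes were called in limma, although 590 had an unadjusted p under 0.05. Midostaurin, a broad inhibitor used against FLT3, gave 2575, 2506 and 1938 normalized counts, which overlap those of DMSO (log2 fold change 0.02, SE 0.18, adjusted p = 0.97; the sign turns under the settings named in the closing section).

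Apitolisib, an inhibitor of PI3K and mTOR that the study used to target JAK1, is not counted among the JAKi here. It gave 1582, 1809 and 1388 normalized counts of *Cish*, a log2 fold change of -0.53 that was called at an adjusted p of 0.036. With the replicate number and the mitochondrial share in the fit, the latter averaging 2.93% in these samples, the adjusted p was 0.25. Its call was also lost without replicate 2 of either DMSO set or without any 1 of its own samples (adjusted p up to 0.20). The calls for Momelotinib and BMS911543 were lost without any 1 of their own samples, without replicate 1 or 2 of DMSO set 1 or without replicate 2 of DMSO set 2 (adjusted p up to 0.43 and 0.18). That for Mubritinib was lost without its replicate 2 (adjusted p = 0.12). The calls for Pimasertib, BGT226, Afatinib and Filgotinib were kept without any 1 of these libraries. Same-numbered samples of CKI and DMSO deviated together, with all 3 correlations over 0.1, for 34 of the 58 CKIs, and when the replicate number was a block in the fit *Cish* was called lower with 14 CKIs, among them PH797804 (1490, 1709 and 1339 normalized counts, log2 fold change -0.60, adjusted p = 0.022 with the block and 0.055 without it). Of the other CKIs added by the block, X396 was also called with the mitochondrial share beside it (adjusted p = 0.019), and Lenvatinib (0.33), TG100115 (0.45), BMS387032 (0.085) and Omipalisib (0.067) were not. The numbers do not pair the samples of X396 and Omipalisib.

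**Figure D3:**
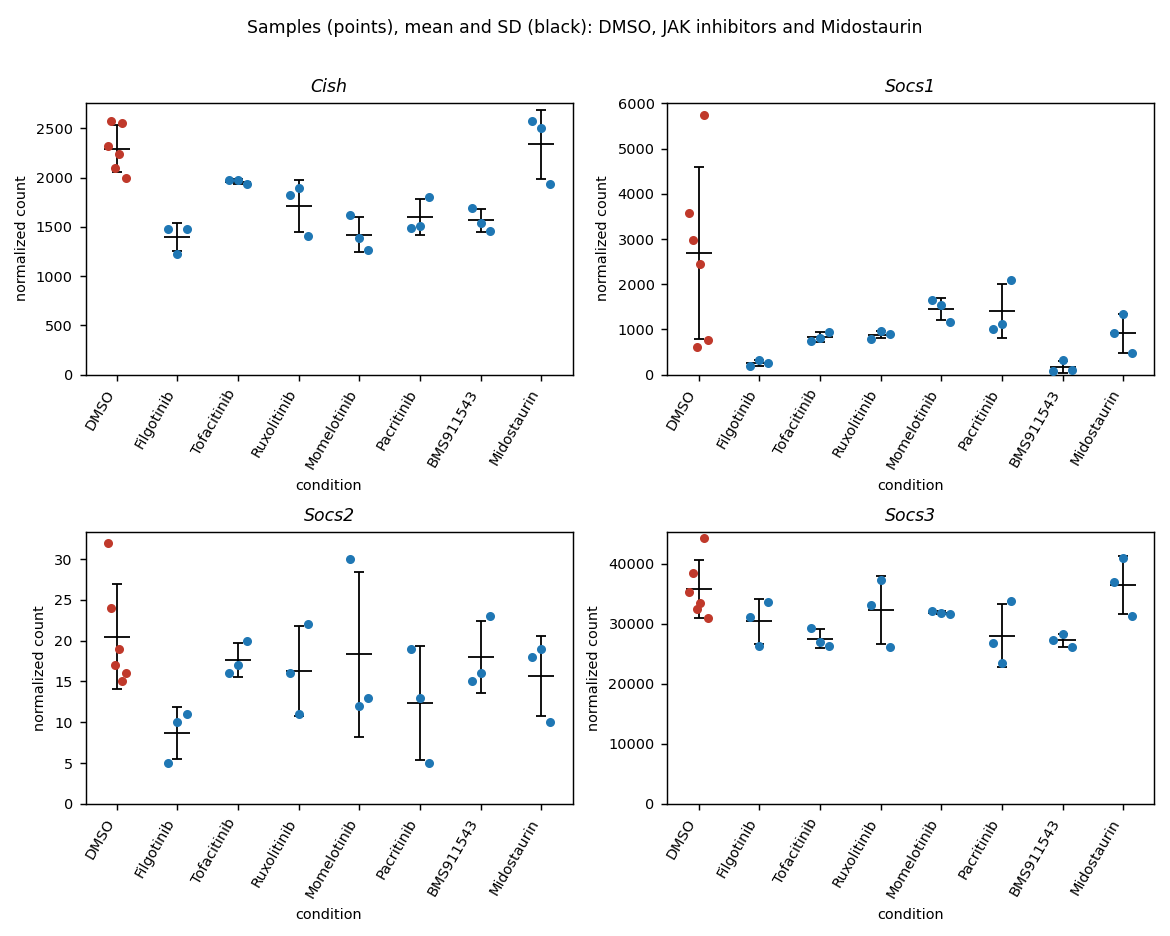
Normalized counts (y axis, from 0) of *Cish*, *Socs1*, *Socs2* and *Socs3* in DMSO (red, 6 samples), the 6 JAKi and Midostaurin (blue, 3 samples each); black bars are the mean and SD. All 18 JAKi samples lie below the 6 DMSO samples for *Cish*, and the *Socs1* samples of Filgotinib and BMS911543 lie between 85 and 316.

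*Socs1*, whose product blocks JAK kinases through its kinase inhibitory region, had both the largest changes of the family and the largest spread. The DMSO samples held 3582, 2986 and 618 normalized counts in set 1 and 2451, 5735 and 754 in set 2, so that replicate 3 of both sets was low and the range was 9.28-fold. Within groups the SD was 0.80 on the log2 scale, against 0.13 for *Socs6* and 0.53 for *Socs2*. With 4 CKIs all 3 samples lay below the 6 DMSO samples. At least 4 CKIs with this pattern were seen for 1201 genes of 12714 (9.45%).

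AZD2014, an inhibitor of mTOR, had the lowest values of *Socs1*. They were 96, 57 and 115 normalized counts, a 23.4-fold lower level (log2 fold change -4.55, SE 0.55, adjusted p = 4.24e-11). BMS911543, a JAK2 inhibitor, gave 85, 316 and 108 (log2 fold change -3.82, adjusted p = 6.56e-08, 14.1-fold lower). Afatinib gave 183, 110 and 244 (log2 fold change -3.57, adjusted p = 5.12e-07). Filgotinib, a JAK1 inhibitor, gave 181, 314 and 258 (log2 fold change -3.05, adjusted p = 9.70e-06). In these 4 groups every sample was below the lowest DMSO sample, and the calls held in each of the 12 alternative fits that leave out no replicate, and without any 1 library.

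A further 3 CKIs were called on *Socs1* with values that overlapped DMSO. Bafetinib, an inhibitor of ABL and LYN, gave 191, 233 and 1025 normalized counts (log2 fold change -2.50, adjusted p = 0.0056), Apitolisib 795, 980 and 185 (-1.95, adjusted p = 0.018) and Lapatinib, an inhibitor of EGFR and ERBB2, 228, 1471 and 1042 (-1.53, adjusted p = 0.036). Each of these groups held at least 1 sample above the lowest DMSO value of 618. The Bafetinib call was lost without its replicate 1 or 2 (adjusted p up to 0.25), and the Apitolisib call without its replicate 3 or replicate 2 of DMSO set 2 (up to 0.23). The Lapatinib call was lost without its replicate 1 or 3, replicate 1 or 2 of DMSO set 1, or replicate 2 of DMSO set 2 (up to 0.45). With the replicate number and the mitochondrial share in the fit the adjusted p was 0.0037 for Bafetinib, 0.19 for Apitolisib and 0.20 for Lapatinib. Without replicate 3, which takes out both low DMSO samples, *Socs1* was called lower with 20 CKIs, and without replicate 1 or 2 with 4.

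The other JAKi left *Socs1* within the range of the DMSO samples. Tofacitinib gave 742, 811 and 940 normalized counts (log2 fold change -1.29, adjusted p = 0.097), Ruxolitinib 795, 966 and 893 (-1.20, adjusted p = 1.00), Pacritinib 1012, 1126 and 2082 (-0.61, adjusted p = 0.54) and Momelotinib 1649, 1535 and 1168 (-0.50, adjusted p = 0.82). Midostaurin gave 923, 1333 and 476 (-1.28, adjusted p = 0.20). These 5 differences did not pass the test, each with an SE of 0.55. That of Tofacitinib passed with the replicate block (adjusted p = 0.048), but not with the mitochondrial share beside it (0.39). The highest mean log2 values of *Socs1* were with Ulixertinib, an ERK inhibitor (3976, 3463 and 2430), and Selumetinib, a MEK inhibitor (2116, 3946 and 2878), which overlap DMSO.

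The genes most like *Socs1* over the 59 condition means were *Sap30*, a subunit of a histone deacetylase complex (Spearman's rho 0.95), *Arf5*, a small GTPase of vesicle transport (0.92), and *Khdrbs1*, an RNA-binding protein (0.91). *Sap30* held 131 to 1037 normalized counts in DMSO, with its lowest values also in replicate 3 of both sets (131 and 217), and 76, 53 and 63 with AZD2014. These correlations are descriptions over conditions that share the preparation, the scaling and, within a condition, the libraries. A window of 200 bases with a GC content of 76.0% was the richest stretch of the *Socs1* transcript, at the 85.5th percentile of the tested genes, and those of *Sap30*, *Arf5* and *Khdrbs1* were at the 90.1st, 85.5th and 92.2nd. An index of the 600 most GC-rich genes, taken per sample, correlated over the 180 samples at 0.24 with the deviations of *Socs1* from its group means and at 0.57 with those of *Socs3*. The index ranks genes by the GC content of the whole transcript, so a fit with it does not adjust for the richest window. That content was 58.8% for *Socs1*, 53.1% for *Sap30*, 59.9% for *Arf5* and 44.1% for *Khdrbs1*. With this index and the replicate number in the fit, the adjusted p for *Socs1* was 2.39e-13 with AZD2014, 2.92e-09 with BMS911543, 2.37e-08 with Afatinib and 1.59e-06 with Filgotinib, and 0.20 with Lapatinib. The numbers do not pair the samples of AZD2014, Afatinib or Filgotinib.

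**Figure D4:**
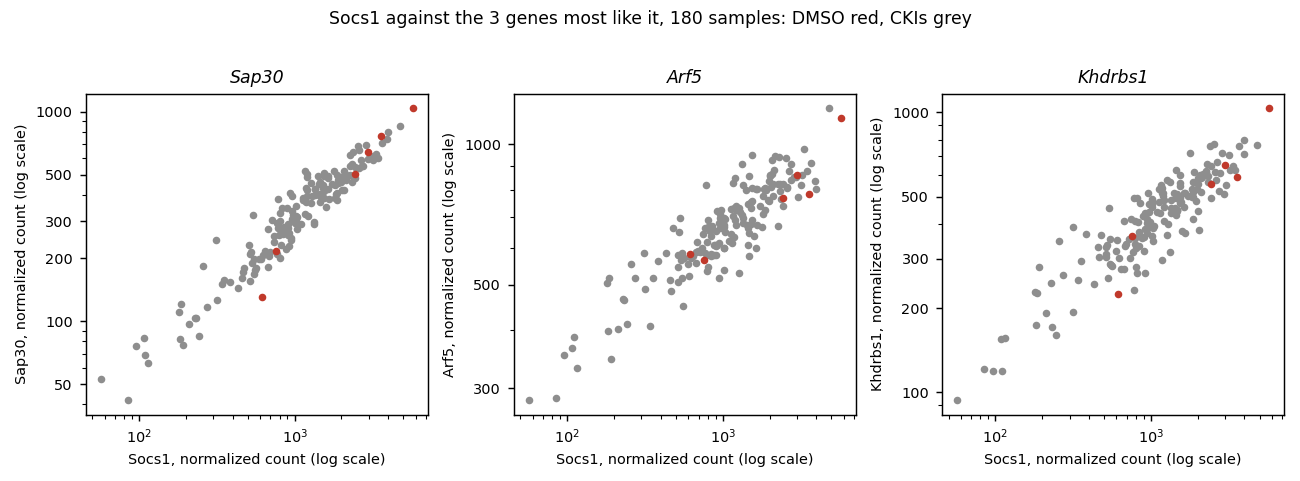
Normalized counts of *Socs1* (x axis, log scale) against those of *Sap30*, *Arf5* and *Khdrbs1* (y axes, log scale) in 180 samples, with DMSO in red and CKIs in grey. The points lie along a line in each panel. The 180 samples run from 57 to 5735 of *Socs1*, and the DMSO samples lie between 618 and 5735.

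*Socs3*, which restrains signalling from the shared IL-6 family receptor chain, was the most abundant member and was lowered by smaller amounts. The DMSO samples held 30878 to 44201 normalized counts with a median of 34377, a 1.43-fold range. With 14 CKIs all 3 samples lay below the 6 DMSO samples, and with 53 of the 58 the mean log2 value was below that of DMSO. At least 14 CKIs with all 3 samples below were seen for 218 genes of 12714 (1.71%).

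Afatinib had the lowest *Socs3*, with 18263, 16315 and 20216 normalized counts (log2 fold change -0.97, SE 0.14, adjusted p = 1.00e-07, 1.95-fold lower). Pimasertib gave 22871, 24353 and 18133 (-0.72, adjusted p = 2.10e-04). PH797804, an inhibitor of the stress kinase p38, gave 19998, 25150 and 21228 (-0.69, adjusted p = 7.04e-04). AZD2014 gave 20511, 21392 and 26259 (-0.65, adjusted p = 1.60e-04). All 12 samples were below the lowest DMSO sample, and these 4 calls were kept without any 1 library. With the replicate number and the mitochondrial share in the fit the adjusted p for Pimasertib was 0.13. Those for Afatinib, PH797804 and AZD2014 were 1.17e-09, 1.30e-05 and 2.57e-06.

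Losmapimod, another p38 inhibitor, gave 20687, 31207 and 18460 normalized counts of *Socs3* (log2 fold change -0.64, adjusted p = 0.037), of which 1 lies within the DMSO range. Apitolisib gave 26693, 26651 and 22527 (-0.49, adjusted p = 0.018) and Lapatinib 27086, 26061 and 24723 (-0.45, adjusted p = 0.016), both below all DMSO samples. The Losmapimod call was lost without its replicate 1 or 3, any sample of DMSO set 1 or replicate 2 of DMSO set 2 (adjusted p up to 0.75). The Apitolisib call was lost without its replicate 3 or replicate 2 of DMSO set 2 (up to 0.14), and the Lapatinib call without its replicate 1 or 3 or the same DMSO sample (up to 0.071). With the replicate number and the mitochondrial share in the fit, the adjusted p was 0.31 for Apitolisib and 0.24 for Lapatinib. The share averaged 2.76% with Lapatinib. With the replicate number and the index of GC-rich genes the adjusted p was 0.038 and 0.34.

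None of the 6 JAKi was called on *Socs3*, although BMS911543 (27252, 28228 and 26119 normalized counts) and Tofacitinib (29260, 26953 and 26326) lay below all DMSO samples. Their log2 fold changes were -0.39 (adjusted p = 0.073) and -0.37 (adjusted p = 0.066). With the replicate block the adjusted p was 0.052 and 0.041, and with the mitochondrial share beside it 0.012 and 0.49, so that each was called in 1 of these fits. Same-numbered samples deviated together for BMS911543 but not for Tofacitinib. Filgotinib gave -0.23 (adjusted p = 0.24), Pacritinib -0.36 (adjusted p = 0.18), Momelotinib -0.16 (adjusted p = 0.75), Ruxolitinib -0.16 (adjusted p = 1.00) and Midostaurin 0.03 (adjusted p = 0.96, with a sign that turns under settings named in the closing section), each with an SE of 0.14. The lowest *Socs3* value among them was 23439 with Pacritinib, whose other samples held 26836 and 33766. The fall of *Socs1* with Filgotinib and BMS911543 stood beside a *Socs3* difference that did not pass the test, and whether the genes differed in their response was not tested.

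**Figure D5:**
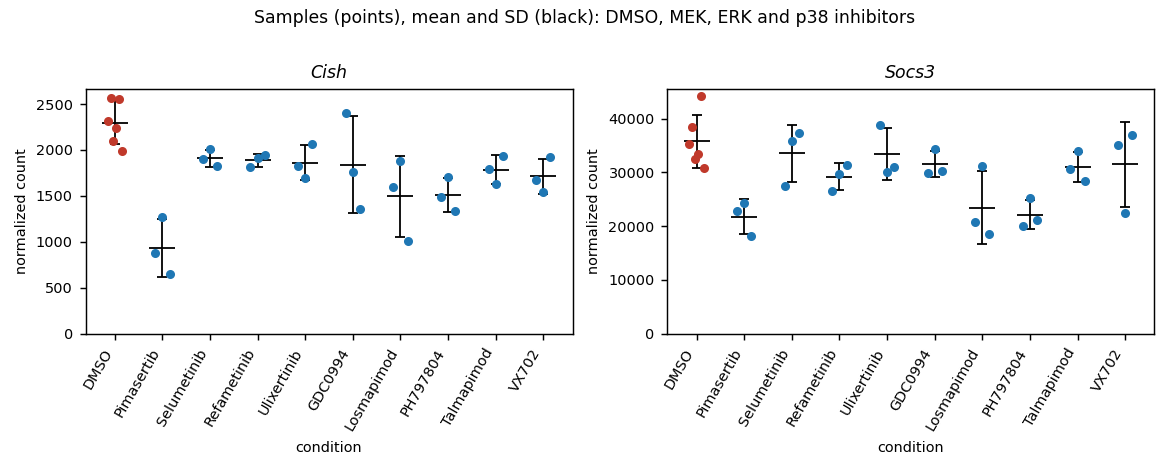
Normalized counts (y axis, from 0) of *Cish* and *Socs3* in DMSO (red, 6 samples) and with inhibitors of MEK (Pimasertib, Selumetinib, Refametinib), ERK (Ulixertinib, GDC0994) and p38 (Losmapimod, PH797804, Talmapimod, VX702; blue, 3 samples each), with the mean and SD in black. Pimasertib is lowest for both genes, and the other MEK and the ERK inhibitors lie higher.

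Inhibitors of 1 pathway did not all give the same level. Among MEK inhibitors, *Cish* stood at 932 ± 315 normalized counts (SD, n = 3) with Pimasertib, 1910 ± 92.5 with Selumetinib and 1890 ± 70.2 with Refametinib, and *Socs3* at 21786 ± 3249, 33527 ± 5348 and 29173 ± 2497. Of the ERK inhibitors, Ulixertinib gave 1864 ± 189 and GDC0994 1841 ± 528 of *Cish*. None of these 4 other MEK and ERK inhibitors was called on *Cish* or *Socs3*. Few genes of any kind were called with them: 0% with Selumetinib and Refametinib, 0.0157% with Ulixertinib and 0.00787% with GDC0994. With Refametinib 3208 genes had an unadjusted p under 0.05. Its *Cish* samples held 1811, 1912 and 1946 normalized counts, below the lowest DMSO value of 1993. Of the p38 inhibitors, Talmapimod gave 30589, 33903 and 28456 normalized counts of *Socs3* and VX702 35058, 22441 and 36911, with no call. Of all genes, 0% were called with Talmapimod and 0.189% with VX702. Doses differed between CKIs and no pair of CKIs was tested against each other.

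*Socs2*, best known as the inhibitor of growth hormone signalling, had 15 to 32 normalized counts in DMSO. With Filgotinib it fell to 5, 10 and 11, all below DMSO (log2 fold change -1.17, SE 0.37, adjusted p = 0.016). With Omipalisib it rose to 46, 28 and 63 (1.09, adjusted p = 0.021) and with BGT226 to 38, 29 and 54 (0.95, adjusted p = 0.042). Both are PI3K and mTOR inhibitors, and in each group 1 sample lay within the DMSO range. Of the 12714 genes, 2227 were called higher with Omipalisib and 3060 with BGT226. The other JAKi gave 16, 17 and 20 (Tofacitinib), 16, 11 and 22 (Ruxolitinib), 30, 12 and 13 (Momelotinib), 19, 13 and 5 (Pacritinib) and 15, 16 and 23 (BMS911543), with no call. These 3 calls rest on few reads. The Filgotinib call was lost without its replicate 1 (adjusted p = 0.19) and the Omipalisib call without its replicate 1 or 3 (up to 0.16). The BGT226 call was lost without its replicate 1 or 3, replicate 3 of DMSO set 1 or any sample of DMSO set 2 (up to 0.21).

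*Socs6*, which binds the KIT and insulin receptors, varied least, with 208 to 261 normalized counts in DMSO and a within-group SD of 0.13 on the log2 scale. It rose with Volasertib, an inhibitor of the mitotic kinase PLK1, to 270, 334 and 288 (log2 fold change 0.37, SE 0.10, adjusted p = 0.028), with Mubritinib to 283, 280 and 322 (0.36, adjusted p = 0.032) and with Filgotinib to 272, 296 and 263 (0.27, adjusted p = 0.040). All 9 samples were above the 6 DMSO samples, which held for 4 CKIs on *Socs6* and for 4.52% of all gene-CKI tests. With AZD2014 it fell to 194, 181 and 188, below all DMSO samples (-0.29, adjusted p = 0.025). Each of the 3 rises was lost without any 1 of its own CKI samples, replicate 2 or 3 of DMSO set 1 or replicate 3 of DMSO set 2 (adjusted p up to 0.20), and the fall without any 1 of its own samples or replicate 2 of DMSO set 2 (up to 0.11).

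*Socs4*, an inhibitor of EGFR signalling, held 81 to 98 normalized counts in DMSO and fell with AZD2014 to 62, 47 and 53 (log2 fold change -0.73, SE 0.17, adjusted p = 3.86e-04), all below DMSO, a call kept without any 1 library. SNS314, an Aurora kinase inhibitor, gave 70, 66 and 64, also below DMSO, but without a call (adjusted p = 0.36). BGT226 gave 109, 112 and 105, above all DMSO samples, again without a call (adjusted p = 0.22).

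*Socs5*, an inhibitor of IL-4 and EGFR signalling, held 47 to 82 normalized counts in DMSO and had no call. With Midostaurin it held 90, 93 and 98, above all DMSO samples, and with Silmitasertib, an inhibitor of casein kinase 2, 41, 66 and 25. Their adjusted p was 0.095 and 0.12, and 0.032 and 0.016 with the replicate block. Same-numbered samples deviated together for both CKIs. Pacritinib gave 121, 118 and 68 (log2 fold change 0.60, adjusted p = 0.12), with an adjusted p of 0.032 with the block and 0.33 with the mitochondrial share beside it, and its numbers do not pair the samples.

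*Socs7*, which binds the adaptor NCK and insulin receptor substrates, held 108 to 221 normalized counts in DMSO, with the low value of 108 in replicate 3 of both sets, and had no call. Its lowest mean log2 value was with Midostaurin (67, 100 and 124) and its highest with Lapatinib (215, 285 and 220), which overlap DMSO. Over the 59 condition means the log2 level of *Socs7* correlated at 0.70 with the share of mitochondrial transcripts, and over 180 samples its deviations from the group means correlated at -0.60 with the index of GC-rich genes. With the mitochondrial share in the fit beside the replicate block, *Socs7* was called lower with Midostaurin (adjusted p = 0.018, against 0.079 with the block alone and 0.17 without it), AZD2014 (0.042, against 0.10 and 0.17) and PF04691502 (0.041, against 0.45 and 0.53). With the index of GC-rich genes beside the block the adjusted p was 0.028, 0.0087 and 0.12. The genes most like it were *Irgm1*, an interferon-induced GTPase (rho 0.86), *Rnd3* (0.86) and *Larp1* (0.86).

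Over the 59 condition means the members ranked the conditions differently. The highest correlation between 2 members was that of *Cish* with *Socs3* (Spearman's rho 0.45) and the lowest that of *Socs3* with *Socs7* (-0.34), while *Cish* and *Socs1* gave 0.26 and *Socs1* and *Socs3* 0.30. In the order of the 59 conditions, DMSO was in place 56 from the lowest for *Cish*, 54 for *Socs3* and 52 for *Socs1*, against 16 for *Socs6* and 24 for *Socs5*. The ranges of all 58 pairs of neighbours in the order overlapped for 7 of the genes, and of 57 pairs for *Socs4*. The exception was AZD2014 (47 to 62 normalized counts of *Socs4*) beside SNS314 (64 to 70). The genes most like *Cish* were *Rnd1* (rho 0.78), *Plekhf1* (0.76) and *Spsb1* (0.73), another SOCS box gene, and those most like *Socs3* were *Sh3bp4* (0.84), *Nek6* (0.82) and *Cyth3* (0.82). For *Socs2* the closest was *Pakap* (0.69), for *Socs4* *C330007P06Rik* (0.66), for *Socs5* *Cstf1* (0.67) and for *Socs6* *Gm9449* (0.74).

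By CKI, 4 of the 8 genes were called with AZD2014 (*Socs1*, *Socs3*, *Socs4* and *Socs6*, all lower), where 19.6% of all tested genes were called in either direction. With Filgotinib 4 were called (*Cish*, *Socs1* and *Socs2* lower, *Socs6* higher), against 20.7% of all genes. With Afatinib and with Apitolisib 3 were called (*Cish*, *Socs1* and *Socs3*, all lower), against 21.9% and 15.9% of all genes. Pimasertib had 2 (*Cish* and *Socs3*), against 21.7%. BGT226 had 2 (*Cish* lower, *Socs2* higher), against 30.4%, and Lapatinib 2 (*Socs1* and *Socs3* lower), against 23.3%. Mubritinib had 2 (*Cish* lower, *Socs6* higher), against 1.84%. Omipalisib had 1 (*Socs2* higher), against 25.7%. There was 1 call each with Bafetinib (2.13% of all genes), PH797804 (1.98%), Volasertib (1.74%) and Losmapimod (0.0865%). Of the other JAKi, BMS911543 had 2 (8.55% of all genes), Momelotinib 1 (0.787%), and Tofacitinib (9.88%), Pacritinib (0.173%) and Ruxolitinib (0%) had 0, as did Midostaurin (4.56%). With Tofacitinib 3960, with Pacritinib 2384 and with Midostaurin 2080 genes had an unadjusted p under 0.05.

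The genes around SOCS in the pathway were taken from 7 lists. Of all 12714 genes, 14.6% were called lower with Filgotinib, 8.08% with BMS911543, 0.857% with Tofacitinib, 0.409% with Momelotinib and 1.93% with Midostaurin. The shares were 13.5% with AZD2014, 12.8% with Afatinib, 5.68% with Pimasertib and 3.2% with Apitolisib, and counts of lower calls in a list are to be read against them. Higher calls stand beside 776 of the 12714 genes called higher with Filgotinib, 1147 with Tofacitinib, 60 with BMS911543, 48 with Momelotinib and 335 with Midostaurin. The numbers were 771 with AZD2014, 1152 with Afatinib, 2031 with Pimasertib and 1614 with Apitolisib. The STAT genes, which carry the signal that SOCS proteins limit, were called lower with Filgotinib for 4 of the 5 counted here, with a median log2 fold change of -0.86 against -0.04 over all genes. *Stat2* fell by 1.39 on the log2 scale (adjusted p = 1.27e-04), *Stat3* by 0.89 (adjusted p = 7.79e-08), *Stat5a* by 0.86 (adjusted p = 0.014) and *Stat5b* by 0.54 (adjusted p = 0.030). *Stat3* was called lower with Tofacitinib (-0.50, adjusted p = 0.017), while none of the 5 was called with Ruxolitinib, Momelotinib, Pacritinib, BMS911543 or Midostaurin. *Stat3* was also called lower with Afatinib (-0.49, adjusted p = 0.0039) and Apitolisib (-0.44, adjusted p = 0.022). With Pimasertib 2 of the 5 were called lower, and they were *Stat5a* (-2.14, adjusted p = 1.30e-09) and *Stat5b* (-0.93, adjusted p = 3.62e-04). Whether the level of a STAT gene is linked to that of *Cish* was not tested. *Stat5a* went from 2384 ± 857 normalized counts in DMSO (SD, n = 6) to 542 ± 219 (SD, n = 3). With Apitolisib 3 of the 5 were called lower, led by *Stat5a* (-1.03, adjusted p = 0.014).

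Of the 4 JAK kinases, *Tyk2* was called lower with Filgotinib (-0.67, adjusted p = 3.28e-04) and none with the other JAKi or Midostaurin. *Tyk2* was also called lower with Afatinib (-0.47, adjusted p = 0.016). *Jak1* was called lower with Afatinib (-0.69, adjusted p = 8.16e-04), AZD2014 (-0.58, adjusted p = 0.0050) and Pimasertib (-0.46, adjusted p = 0.035). Of 17 tested cytokine receptor genes, 8 were called lower with Filgotinib, 5 with BMS911543, 3 with Tofacitinib, 1 with Momelotinib and 0 with Ruxolitinib and Pacritinib, and none higher. Of the same 17, 9 were called lower with Afatinib, 8 lower and 2 higher with Pimasertib, 7 lower and 4 higher with AZD2014 and 7 lower with Apitolisib. *Il10ra*, the IL-10 receptor chain, was lower with Filgotinib (-0.99, adjusted p = 5.32e-08), Tofacitinib (-0.56, adjusted p = 0.016), Momelotinib (-0.67, adjusted p = 0.0048) and Midostaurin (-0.79, adjusted p = 5.63e-05). It was also called lower with Afatinib (-0.86, adjusted p = 4.51e-06), Pimasertib (-0.66, adjusted p = 0.0014) and Apitolisib (-0.57, adjusted p = 0.013). *Il6ra*, the IL-6 receptor, was lower with BMS911543 (-2.07, adjusted p = 2.36e-07) and Filgotinib (-1.09, adjusted p = 0.0077), and also with AZD2014 (-2.51, adjusted p = 1.46e-10) and Afatinib (-1.80, adjusted p = 7.90e-06). With Midostaurin *Il4ra* was called higher (0.89, adjusted p = 0.015) and *Il10ra* and *Ifngr1* lower.

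Of 10 tested cytokine genes, which supply the signals that induce SOCS genes, *Ifnb1*, interferon beta, fell with Midostaurin. The mean was 122 ± 71.5 normalized counts in DMSO (SD, n = 6) and 10.0 ± 2.65 with Midostaurin (SD, n = 3), a log2 fold change of -3.36 (limma, adjusted p = 1.12e-10), and *Il6* fell by 1.36 on the log2 scale (adjusted p = 0.047). With Tofacitinib 3 were called higher, among them *Ifnb1* (1.45, adjusted p = 0.020), and with Filgotinib *Il27* (-2.07, adjusted p = 5.98e-06) and *Csf1* (-1.12, adjusted p = 4.59e-04) fell while *Lif* rose (1.31, adjusted p = 0.041). *Csf1* was also called lower with BMS911543 (-1.19, adjusted p = 2.56e-04), AZD2014 (-1.40, adjusted p = 6.02e-06) and Afatinib (-0.79, adjusted p = 0.017). *Ifnb1* was called higher with Pimasertib (1.35, adjusted p = 0.013) and Apitolisib (1.15, adjusted p = 0.038) too. With Ruxolitinib, Momelotinib or Pacritinib 0 of the 10 were called. However, *Ifnb1* held 55, 65 and 58 normalized counts with Momelotinib, all below the DMSO samples (75 to 262). The study reported reduced *Ifnb1* expression with Momelotinib.

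The 12 other inhibitors of the pathway include phosphatases, PIAS proteins and USP18. With Filgotinib 5 of 12 were called lower, among them *Usp18*, a brake on interferon receptor signalling (-1.38, adjusted p = 6.72e-04), *Pias2* (-1.21, adjusted p = 2.11e-05) and *Ptpn1*, a phosphatase of JAK2 and TYK2 (-1.02, adjusted p = 7.66e-10). With BMS911543 4 were called lower, among them *Pias4* (-1.03, adjusted p = 7.88e-04) and *Ptpn1* (-0.87, adjusted p = 2.14e-07). With AZD2014 4 were called lower and 1 higher, and with Afatinib 3 and 1. *Ptpn1* was also lower with AZD2014 (-1.05, adjusted p = 1.46e-10), Apitolisib (-0.52, adjusted p = 0.013), Tofacitinib (-0.40, adjusted p = 0.040) and Afatinib (-0.36, adjusted p = 0.034) and higher with Midostaurin (0.51, adjusted p = 0.0079). Of the 6 SOCS box partners, the elongins, cullins and RBX proteins, 1 was called with a JAKi, *Eloc* with Tofacitinib (0.61, adjusted p = 0.035), and with AZD2014 *Cul5* (-0.84, adjusted p = 2.40e-04) and *Cul2* (-0.91, adjusted p = 0.0038) were lower.

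Of 15 other STAT target genes, *Irf8*, a transcription factor of macrophages, was called lower with Filgotinib (-2.23, adjusted p = 5.26e-09), Tofacitinib (-1.32, adjusted p = 0.0079), Momelotinib (-1.39, adjusted p = 0.0048), BMS911543 (-1.35, adjusted p = 5.61e-04) and Midostaurin (-1.23, adjusted p = 0.0052). It was also called lower with AZD2014 (-1.46, adjusted p = 1.02e-04), Apitolisib (-1.36, adjusted p = 0.0088) and Pimasertib (-1.48, adjusted p = 5.01e-04). In all, 3 were called higher and 3 lower with Filgotinib, 4 and 1 with Tofacitinib, 0 and 2 with Momelotinib, 1 and 1 with BMS911543, 4 and 3 with Midostaurin, and 0 with Ruxolitinib and Pacritinib. With AZD2014 2 were called higher and 1 lower, with Afatinib 2 and 0, with Apitolisib 1 and 2 and with Pimasertib 2 and 5. Of all genes, 20.7% were called in either direction with Filgotinib, 9.88% with Tofacitinib, 0.787% with Momelotinib and 4.56% with Midostaurin. The 2 calls with BMS911543 stand beside 8.55% of all genes. The shares were 19.6% with AZD2014, 21.9% with Afatinib, 15.9% with Apitolisib and 21.7% with Pimasertib. The targets did not move one way: *Bcl6* rose with Filgotinib (1.28, adjusted p = 8.28e-04) and BMS911543 (1.11, adjusted p = 0.0067), and *Myc* rose with Tofacitinib (0.78, adjusted p = 0.025) and Midostaurin (2.02, adjusted p = 5.98e-12). *Bcl6* was also called higher with Pimasertib (1.45, adjusted p = 5.43e-04), Apitolisib (1.28, adjusted p = 0.010) and AZD2014 (1.02, adjusted p = 0.0088). With Midostaurin *Ifnb1*, *Irf1* (-1.06, adjusted p = 1.57e-05) and *Gbp2* (-1.27, adjusted p = 0.047) were called lower. *Irf1* was also called lower with Filgotinib, Momelotinib, Apitolisib and Pimasertib. With Midostaurin *Cish* and *Socs3* stayed within or near the DMSO range. *Socs1* held 923, 1333 and 476 normalized counts, the last below the lowest DMSO value of 618, without a call. Whether these genes changed together was not tested.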

How the data were processed

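RNA from 180 samples was prepared by the SMART-seq2 protocol. According to the submitters' processing notes and the study's methods, reads were aligned to mm10 with TopHat2 2.1.1, and bedtools 2.29.2, R 3.6.2 and DESeq2 were used. The deposited values are a score: exonic read counts that the authors scaled on genes varying little between samples and rounded to whole numbers. Since the scaling and rounding hide the read counts, no count test was run. Columns were matched to samples by name (0 unmatched), and no 2 libraries held identical values. Replicates were described by the study as independent; where this does not hold, p-values measure the technical spread only.

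The test of a CKI against the 6 DMSO samples was that of limma 3.58.1 (R 4.3.3) on log2(value + 1), with a variance trend, for the 12714 of 45070 genes with a mean of at least 10. The 59 groups shared 1 fit, and p-values were adjusted over all tested genes for each CKI after Benjamini and Hochberg (threshold 0.05). A gene was named with a CKI in full if it was called and its 3 samples lay beyond the 6 DMSO samples (at most 5 rises and 5 falls per gene), and always for the 6 JAKi and Midostaurin for *Cish*, *Socs1* and *Socs3*. Other calls and a few CKIs outside this rule were named after their values were seen. The members and gene lists were chosen with earlier results of these data known. The 3 genes with the highest Spearman correlation of the condition means were named as most like a member. Pathway genes named are among the 4 largest calls of a list for at least 1 CKI. One item of these lists is not reported here and was left out of their counts. The script was tested on simulated data. Alternatives were other pseudocounts (0.5, 10), filters (none, 50), median of ratios scaling, 1 DMSO set, no trend, only the groups compared, a replicate block (also with the mitochondrial share, or with an index of GC-rich genes, added after seeing the data), a log2 fold change of at least 1, and leaving out samples. The index is the median log2 deviation of the genes in the top 5% of whole-transcript GC content minus that of the others, without the members. Whether the counting used the strand is not given in the sources used here, so overlapping genes on opposite strands cannot be told apart. Tables were made with Python 3.11.15, NumPy 2.4.6, pandas 2.3.3 and matplotlib 3.10.9.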

Additional observations from a re-analysis of the deposited data

How the results depend on the processing

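Of the 25 lower and 5 higher calls, pseudocounts of 0.5 and 10 and a fit without the variance trend gave the same counts. The lower calls numbered 15 with the first and 16 with the second DMSO set alone, 16 when only the groups compared were fitted, and 9 with a log2 fold change of at least 1, and the higher calls 0, 2, 2 and 1. The higher calls numbered 3 without a filter, 3 with a filter at a mean of 50, which leaves out *Socs2*, and 3 with median of ratios scaling. Without a replicate number the lower calls ranged from 11 to 36 and the higher calls were 1. With the replicate block 38 were lower and 7 higher, all 30 calls were kept and 15 were added. The numbers pair the samples only in part (34 of 58 CKIs). With the mitochondrial share added to the block, 24 of the 30 calls held, and with the index of GC-rich genes 28 held, with 8 higher calls in all. Without any 1 library, 13 of the 30 calls were kept each time. No called fold change turned its sign. Among the uncalled fold changes of *Cish*, *Socs1* and *Socs3* with the JAKi and Midostaurin, those that turned were *Cish* with Midostaurin (log2 fold change -0.0727 under median of ratios scaling, -0.000289 with the first DMSO set, and -0.0542 to 0.152 without 1 replicate number or library), *Socs3* with Midostaurin (-0.0683 under median of ratios scaling, and -0.0615 to 0.131 without 1 replicate number or library) and *Socs1* with Pacritinib (-1.71 to 0.0292 without 1 replicate number or library, and called without replicate 3). The causes were not tested. Low counts limit *Socs2* most.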
